A study of Sus scrofa with 10 samples.

Results

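A set of 10 transcription factors and cofactors that shape the somatic gonad, SOX9, SOX8, WT1, GATA4, GATA6, LHX9, NR0B1, EMX2, CBX2 and ZFPM2, were followed across pig testicular grafts and testis tissue. They were taken by gene symbol. All 10 were found among the 27376 rows of the count table and passed the filter on low counts in every comparison. GF grafts grew from porcine germ cells and testicular fibroblasts injected together, FO grafts grew from testicular fibroblasts alone, and each was injected with concentrated Matrigel. The grafts were recovered 6 months later from the dorsal skin of mice, whose strain the labels spell SKID. There were 4 GF libraries, 4 FO libraries and 2 libraries of control testis tissue, whose titles carry the code 5D, which is not explained. In their other fields the control libraries repeat the text of the GF grafts, so that only the titles set them apart. Age, grafting and tissue cannot be told apart in any comparison with control testis. The labels give no strain or age of the donors and do not say whether libraries of a group came from different animals. The p-values therefore measure only the spread between these libraries, which may be technical.

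The mammalian gonad arises as a ridge of coelomic epithelium that can become testis or ovary. In the mouse, WT1, LHX9, EMX2, GATA4 and the polycomb protein CBX2 are needed for the ridge to form or to raise the levels of NR5A1 and SRY, and GATA4 acts there with its cofactor ZFPM2. SRY then raises SOX9, which drives supporting cells to become Sertoli cells, with SOX8 as a partial backup, while NR0B1 is a nuclear receptor that represses NR5A1 targets and, in duplicate, disturbs testis formation in humans. In the postnatal testis SOX9, SOX8, WT1 and GATA4 are known from Sertoli cells, GATA6 from Sertoli and Leydig cells, and in mice LHX9 also from interstitial cells.

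Between GF and FO grafts, the factors did not move as a block. SOX9 rose in GF grafts, WT1, LHX9, EMX2 and ZFPM2 fell, and SOX8, GATA4, GATA6, NR0B1 and CBX2 did not pass the test. In bulk tissue, fewer cells of a type and less RNA per cell cannot be told apart. The call was an adjusted p under 0.05 in the quasi-likelihood test of edgeR, with Benjamini-Hochberg adjustment over all 13782 genes tested. Of the 10 factors 5 passed (1 higher, 4 lower), against 30.5% of all genes tested (17.6% higher and 13.0% lower). The median log2 fold change of the factors was -0.71, against -0.02 over all genes tested, and the median of its size was 1.02, against 0.71. The values of the 4 GF and the 4 FO libraries did not overlap for 5 of the 10 factors, against 36.0% of all genes tested. Levels below are counts per 1000000 reads (CPM), scaled by the trimmed mean of M values (TMM), and are compared between libraries and not between genes.

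**Figure D1:**
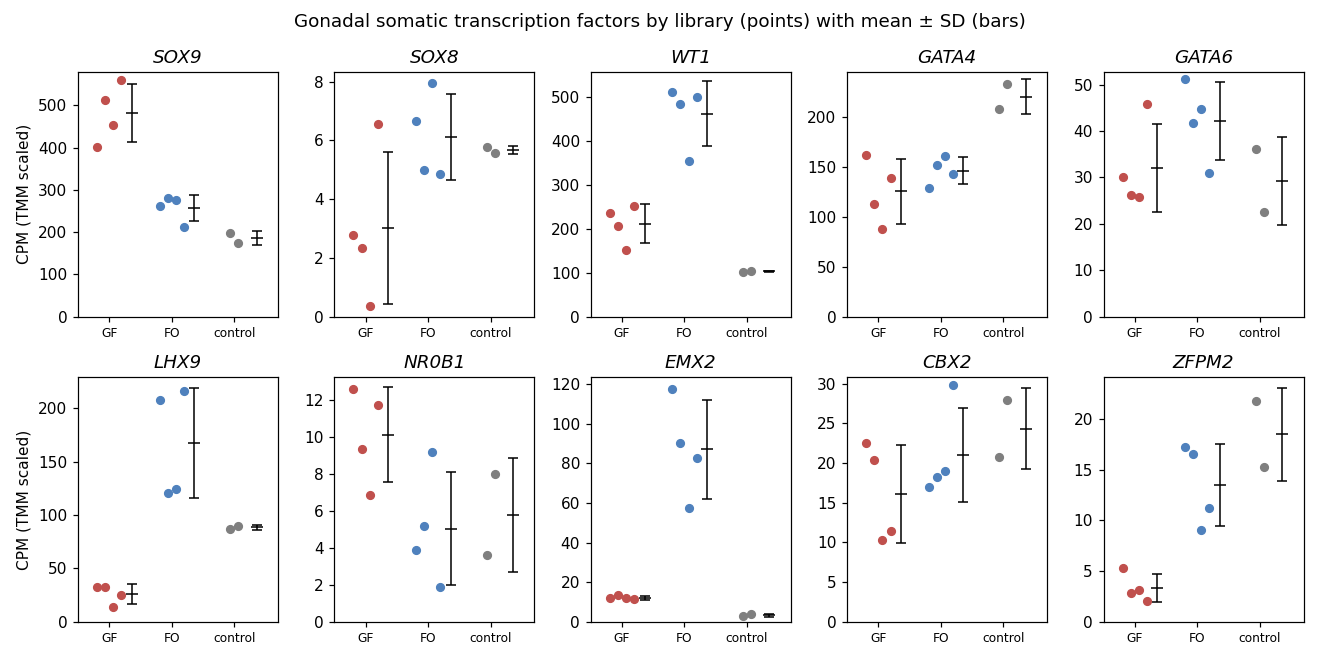
Level of each of the 10 factors in CPM (TMM scaled, linear axis from 0) in the 4 GF (red), 4 FO (blue) and 2 control testis (grey) libraries; points are libraries in replicate order and bars give the mean ± SD of each group. SOX9 was highest in GF grafts, between 402 and 560 CPM, whereas WT1, LHX9 and EMX2 were highest in FO grafts.

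SOX9, the Sertoli cell determinant, lies at chr12:8642154-8647315 of the Sscrofa11.1 build. It had 402, 514, 452 and 560 CPM in GF 1 to GF 4, against 261, 281, 275 and 212 CPM in FO 1 to FO 4. Every GF library lay above every FO library. The spread within each group was small (coefficient of variation 14.3% in GF and 12.1% in FO grafts). SOX9 rose in GF over FO grafts by 0.91 ± 0.20 (log2 fold change ± SE, adjusted p = 0.00621, edgeR), but a test against a fold of 1.5 gave an adjusted p of 0.0901. SOX8, its close relative, had 2.78, 2.34, 0.345 and 6.56 CPM in GF 1 to GF 4, against 6.68, 4.99, 7.96 and 4.86 CPM in FO 1 to FO 4. The groups overlapped through GF 4, and GF 3 rested on 1 read. The difference did not pass (-1.03 ± 0.67, adjusted p = 0.263, edgeR), and ranged from -1.66 without GF 4 to -0.69 without GF 3. SOX8 counts lay between 1 and 19 reads in GF and between 23 and 38 reads in FO libraries.

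Of the factors of the early ridge, WT1, a zinc finger protein of coelomic epithelium and Sertoli cells, lies at chr2:28411467-28456007. It had 236, 206, 151 and 253 CPM in GF 1 to GF 4, against 511, 484, 354 and 501 CPM in FO 1 to FO 4. The highest GF library stood below the lowest FO library, FO 3. WT1 fell in GF relative to FO grafts by 1.13 on the log2 scale (-1.13 ± 0.23, adjusted p = 0.00361, edgeR). SOX9 and WT1, both known from Sertoli cells, thus passed in opposite directions. LHX9, a LIM homeodomain protein, lies at chr10:20742323-20764006. It had 32.7, 32.4, 13.4 and 25.5 CPM in GF 1 to GF 4, against 208, 120, 125 and 216 CPM in FO 1 to FO 4. Its groups were far apart, with FO 1 and FO 4 above FO 2 and FO 3. LHX9 fell in GF grafts (-2.68 ± 0.33, adjusted p = 2.80e-04, edgeR).

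EMX2, a homeodomain protein of the urogenital ridge, lies at chr14:127649675-127656972. It had 11.8, 13.5, 12.1 and 11.4 CPM in GF 1 to GF 4, against 118, 90.1, 57.4 and 82.7 CPM in FO 1 to FO 4. The 4 GF libraries had a coefficient of variation of 7.63% against 28.5% in FO grafts. They held 33 to 75 reads each, and the FO libraries 274 to 423. Counting error is large at the GF counts, so the difference in spread is not read further. EMX2 had the most negative log2 fold change of the 10 factors (-2.83 ± 0.28, adjusted p = 9.79e-05, edgeR). CBX2 (chr12:2570841-2580336), a subunit of polycomb repressive complex 1 that acts upstream of SRY in the mouse, had 22.5, 20.4, 10.3 and 11.4 CPM in GF 1 to GF 4, against 17.0, 18.2, 19.1 and 29.8 CPM in FO 1 to FO 4. GF 1 and GF 2 lay among the FO values and GF 3 and GF 4 below them. The difference did not pass (-0.37 ± 0.35, adjusted p = 0.445, edgeR). Without GF 3 and GF 4, the libraries of the lowest total counts, the CBX2 difference was 0.01.

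The GATA factors and their cofactor split. GATA4 (chr14:14858470-14938156), a zinc finger factor of ridge, Sertoli and Leydig cells, had 162, 113, 87.5 and 139 CPM in GF 1 to GF 4, against 129, 152, 161 and 143 CPM in FO 1 to FO 4. GATA6 (chr6:107282709-107314725), its relative, had 30.2, 26.3, 25.8 and 45.9 CPM in GF 1 to GF 4, against 51.2, 41.7, 44.8 and 30.9 CPM in FO 1 to FO 4. Both sets overlapped, and neither GATA4 (-0.22 ± 0.23, adjusted p = 0.494, edgeR) nor GATA6 (-0.39 ± 0.28, adjusted p = 0.307, edgeR) passed. ZFPM2 (chr4:31607968-31996226), also called FOG2, which binds GATA4 and GATA6, had 5.35, 2.88, 3.10 and 2.07 CPM in GF 1 to GF 4, against 17.2, 16.5, 9.00 and 11.2 CPM in FO 1 to FO 4. Its groups did not overlap, and it fell in GF grafts (-1.98 ± 0.46, adjusted p = 0.00722, edgeR) on 6 to 25 reads per GF library and 43 to 76 reads per FO library.

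NR0B1 (chrX:26117874-26122951), also called DAX1, had 12.6, 9.37, 6.89 and 11.7 CPM in GF 1 to GF 4, against 3.89, 5.21, 9.21 and 1.90 CPM in FO 1 to FO 4. GF 3 lay below FO 3, so that the groups overlapped. The difference did not pass (1.00 ± 0.51, adjusted p = 0.159, edgeR). Among the GF grafts, GF 3 held the lowest value of 7 of the 10 factors, whereas no FO library was lowest for more than 4. GF 3 also had the lowest total counts. How often it was lowest over all genes was not counted, so this is not read as a trait of the factors.

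**Figure D2:**
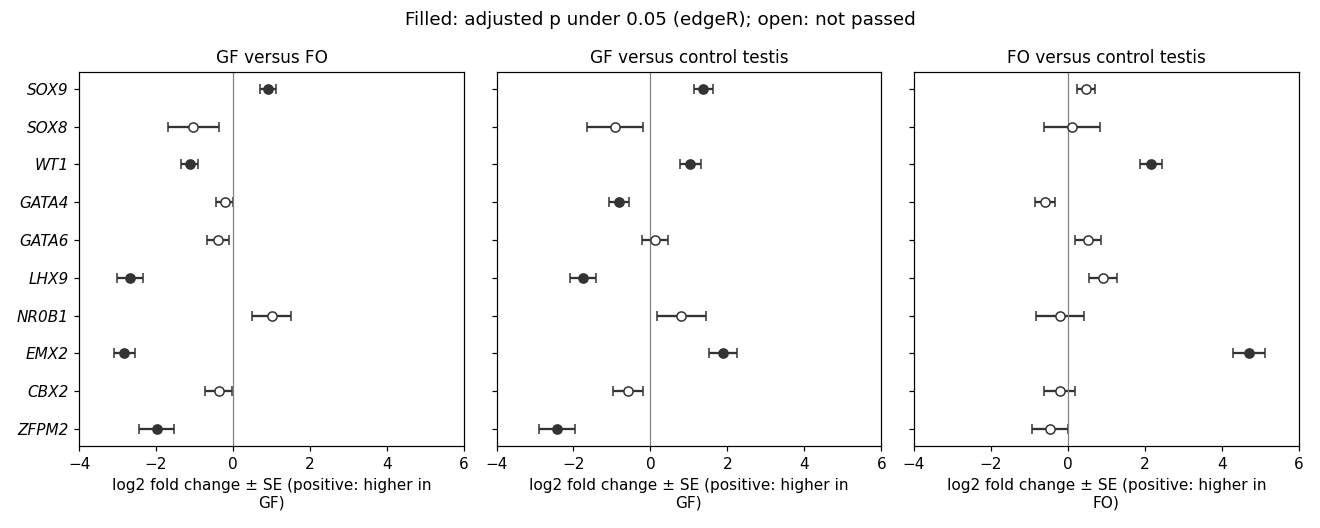
Log2 fold change ± SE of each factor in GF versus FO grafts, GF grafts versus control testis and FO grafts versus control testis, positive where the first group is higher; filled circles passed an adjusted p of 0.05 (edgeR) and open circles did not. EMX2 ran from -2.83 in GF versus FO grafts to 4.71 in FO grafts versus control testis. Both control comparisons use the same 2 control libraries.

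Against control testis, the GF grafts had more SOX9, WT1 and EMX2 and less GATA4, LHX9 and ZFPM2. Of the 10 factors 6 passed (3 higher, 3 lower), against 25.8% of the 15877 genes tested (14.0% higher, 11.8% lower), with a median log2 fold change of -0.23 against 0.03 over all genes. SOX9 had 197 and 174 CPM in the control libraries, below every GF value, and rose in GF grafts by 1.38 ± 0.25 (adjusted p = 0.00161, edgeR). EMX2 had 2.80 and 3.77 CPM in control testis and rose by 1.88 ± 0.36 (adjusted p = 0.00260, edgeR). WT1, at 102 and 103 CPM in control testis, rose by 1.04 ± 0.27 (adjusted p = 0.0140, edgeR). The fallers were LHX9, at 86.9 and 90.0 CPM in control testis (-1.75 ± 0.35, adjusted p = 0.00288, edgeR), and ZFPM2, at 21.7 and 15.2 CPM (-2.43 ± 0.47, adjusted p = 0.00265, edgeR). GATA4, at 208 and 233 CPM in control testis, fell too (-0.81 ± 0.26, adjusted p = 0.0327, edgeR). LHX9 and ZFPM2 thus stood lower in GF grafts than in both other groups, and SOX9 higher.

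The 4 other factors did not pass between GF grafts and control testis. In control testis SOX8 had 5.76 and 5.58 CPM (log2 fold change -0.92) and GATA6 had 36.0 and 22.6 CPM (0.12). NR0B1 had 3.62 and 7.99 CPM there (0.80), and CBX2 had 20.7 and 27.9 CPM (-0.58). With 1 library left out, SOX8 ran from -1.55 without GF 4 to -0.60 without GF 3, and NR0B1 from 0.32 without control 1 to 1.46 without control 2. Several of the calls hang on the small control group. With a single control library, which is then assumed to vary like the other groups, fewer factors passed. Fewer of all genes tested passed then as well, so that this loss was not particular to the factors. WT1 lost the call without control 1 (adjusted p = 0.133, edgeR) and without control 2 (0.141), and so did GATA4 (0.126 and 0.225). EMX2 lost it without control 1 (0.0574) and SOX9 without control 2 (0.0529). GATA4 also lost it with the replicate number as a paired block (-0.79, adjusted p = 0.0698, edgeR), with total counts as scaling (0.0730) and in thinned libraries (0.0561). In a fit of the 6 libraries of these groups alone, 2201 of 15248 genes passed, and WT1 (0.0505), EMX2 (0.0540) and GATA4 (0.104) missed the threshold.

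The FO grafts were set against the same 2 control libraries, and WT1 and EMX2 were higher in them. Of the 10 factors 2 passed (2 higher, 0 lower), against 18.7% of the 15877 genes tested (8.12% higher, 10.6% lower), and the median log2 fold change was 0.29 against -0.04 over all genes. By DESeq2 the same count, 2, passed, against 3772 of 17015 genes tested. WT1 averaged 462 ± 73.4 CPM in FO grafts (SD, n = 4) and 103 ± 0.775 CPM in control testis (SD, n = 2), and rose by 2.17 ± 0.29 (adjusted p = 2.43e-04, edgeR). EMX2 averaged 87.0 ± 24.8 CPM in FO grafts (SD, n = 4) and 3.28 ± 0.688 CPM in control testis (SD, n = 2), and rose by 4.71 ± 0.40 (adjusted p = 1.14e-05, edgeR), the largest difference of any of the 10 factors in the 3 comparisons. LHX9 averaged 167 ± 51.7 CPM in FO grafts, above both control libraries in each of the 4, but did not pass (0.92 ± 0.37, adjusted p = 0.101, edgeR). It passed with the replicate number as a paired block (1.07, adjusted p = 0.0364, edgeR) and in the fit of these 6 libraries alone given next.

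For the other 7 factors the log2 fold changes of FO grafts over control testis ran between -0.59 for GATA4 and 0.52 for GATA6. In a fit of these 6 libraries alone, 5 factors passed, against 6600 of 14472 genes tested (2972 of 15877 in the main fit). SOX9 (0.51, adjusted p = 0.0307, edgeR), LHX9 (0.95, adjusted p = 0.00700) and GATA4 (-0.55, adjusted p = 0.0134) were added to WT1 and EMX2. Over all 3 groups, the order of mean levels was GF, FO and control testis for SOX9, and FO, GF and control testis for WT1, GATA6 and EMX2. It was FO, control testis and GF for LHX9 and SOX8. GATA4, CBX2 and ZFPM2 ran control testis, FO and GF, and NR0B1 ran GF, control testis and FO. Neighbours that did not pass were FO and control testis for SOX9, LHX9, GATA4 and ZFPM2, FO and GF for GATA4, and all neighbours for SOX8, GATA6, CBX2 and NR0B1. For WT1 and EMX2 every pair of neighbours passed.

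Ratios of the counts of 2 factors within a library do not depend on scaling. A set of 8 such ratios was computed. They were chosen after the values were seen and are given with no test, and only their differences between groups are read, since transcripts can differ in how they are captured. The count of WT1 over that of SOX9 averaged 0.443 ± 0.107 in GF grafts and 1.83 ± 0.449 in FO grafts (SD, n = 4 each), against 0.557 ± 0.0546 in control testis (SD, n = 2). GF grafts lay between 0.333 and 0.586 on this ratio, a range that holds the control value of 0.519 but not that of 0.596, and FO grafts lay between 1.28 and 2.36. LHX9 over SOX9 averaged 0.0550 ± 0.0223 in GF and 0.674 ± 0.283 in FO grafts (SD, n = 4 each), against 0.480 ± 0.0554 in control testis (SD, n = 2). Here the FO and control values overlapped and GF stood apart. EMX2 over WT1 averaged 0.0602 ± 0.0159 in GF and 0.186 ± 0.0314 in FO grafts (SD, n = 4 each), against 0.0319 ± 0.00644 in control testis (SD, n = 2). ZFPM2 over GATA4 averaged 0.0272 ± 0.00924 in GF and 0.0942 ± 0.0342 in FO grafts (SD, n = 4 each), against 0.0849 ± 0.0276 in control testis (SD, n = 2). NR0B1 over WT1 averaged 0.0478 ± 0.00388 in GF and 0.0121 ± 0.00975 in FO grafts (SD, n = 4 each), against 0.0563 ± 0.0296 in control testis (SD, n = 2). GATA4 over GATA6 overlapped between the grafts, at 3.03 to 5.38 in GF and 2.52 to 4.64 in FO grafts, against 5.77 and 10.3 in control testis.

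**Figure D3:**
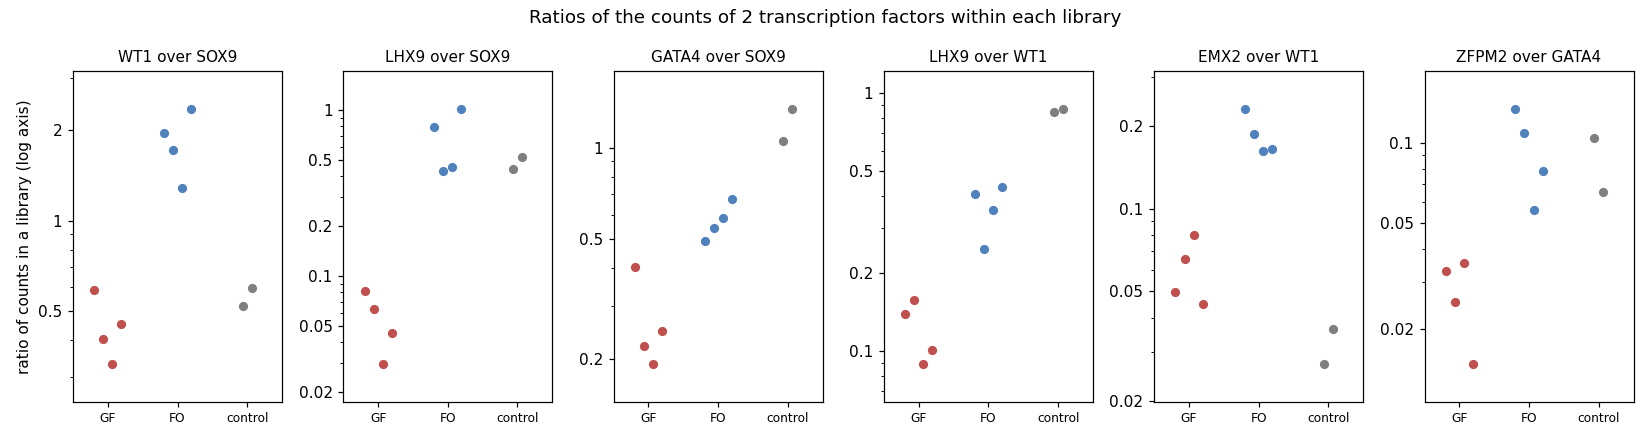
Ratio of the counts of 2 factors within each library (log axis) in the 4 GF (red), 4 FO (blue) and 2 control testis (grey) libraries; points are libraries. The ratios were chosen after the values were seen, so that their separation is no test. GF and FO grafts did not overlap in the 6 ratios shown, but overlapped in GATA4 over GATA6, which is not shown. WT1 over SOX9 lay between 0.333 and 0.586 in GF and between 1.28 and 2.36 in FO grafts.

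The genes that work beside these factors in the ridge and in testis determination were mixed in GF against FO grafts. Of 28 listed, 24 were tested, of which 8 were higher, 6 lower and 10 did not pass, with a median log2 fold change of -0.40 against -0.02 over all genes tested. Over all genes tested, 17.6% were higher and 13.0% lower in GF versus FO grafts. The shares were 14.0% and 11.8% in GF grafts versus control testis, and 8.12% and 10.6% in FO grafts versus control testis. Counts of this and the later lists are to be set against these shares. The fall was clear for NR2F2, a nuclear receptor of interstitial and mesenchymal cells (-2.30 ± 0.27, adjusted p = 2.48e-04, edgeR), and INSR, the insulin receptor (-1.31 ± 0.23, adjusted p = 0.00178). Higher in GF grafts were MAP3K4, a kinase upstream of SRY in mice (1.21 ± 0.26, adjusted p = 0.00455, edgeR), and PTCH1, the hedgehog receptor and itself a hedgehog target (1.13 ± 0.24, adjusted p = 0.00458). AMH, the Sertoli cell hormone and a SOX9 target, averaged 100 CPM in GF grafts, 12.9 CPM in FO grafts and 483 CPM in control testis. It rose in GF over FO grafts (2.95, adjusted p = 0.00662, edgeR), with 3.91 without FO 3, but lost the call without GF 3 and GF 4 (1.55, adjusted p = 0.127) and without FO 1 and GF 3 (adjusted p = 0.0679). NR5A1, the nuclear receptor that acts with SOX9 on AMH, averaged 68.7 CPM in GF grafts, 23.7 CPM in FO grafts and 71.0 CPM in control testis. It passed in GF versus FO (1.53, adjusted p = 0.0326, edgeR), a call lost without GF 3, GF 4, FO 1, FO 2 or FO 4 (adjusted p between 0.0667 and 0.0994). Without GF 3 and GF 4 its log2 fold change was 0.57 (adjusted p = 0.351), and without FO 1 and GF 3 it was 1.16 (0.201). SRY had 0 reads in all 10 libraries.

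In a list of genes of the ovarian programme, which opposes SOX9 in the mouse, no tested gene rose in GF over FO grafts. Of 17 genes counted here 10 were tested, of which 0 were higher, 5 lower and 5 did not pass in GF against FO grafts, with a median of -1.36 against -0.02 over all genes tested. ESR1, an estrogen receptor, stood at a mean of 16.1 CPM in GF against 40.3 CPM in FO grafts (-1.32 ± 0.27, adjusted p = 0.00374, edgeR). CTNNB1, which encodes beta-catenin, had a mean of 112 CPM in GF against 385 CPM in FO grafts (-1.79 ± 0.42, adjusted p = 0.00764), with -1.18 without GF 3 and GF 4 and an adjusted p of 0.0755 without FO 1 and GF 3. RUNX1 (-2.08, adjusted p = 0.0199, edgeR), NR2F1 (-1.07, adjusted p = 0.0318) and BMP2 (-1.39, adjusted p = 0.0352) also fell. RUNX1 lost the call without GF 2 or any 1 FO library (adjusted p up to 0.0705) and with the replicate number as a paired block (0.0544). NR2F1 lost it without GF 1, GF 2, GF 3, FO 1, FO 3 or FO 4 (up to 0.103), and BMP2 without GF 2, GF 4 or any 1 FO library (up to 0.116). FOXL2, the factor that keeps granulosa cell identity, had 3 reads over the GF, 0 over the FO and 1 over the control libraries. The falls of genes of this list are read gene by gene, and whether an ovarian programme fell was not tested. Against control testis, NR2F1 had a mean of 47.1 CPM in GF grafts against 147 CPM in control testis and fell (-1.65, adjusted p = 0.00541, edgeR), a call lost without control 1 (0.0545). FO grafts passed no gene of this list against control testis (0 of 10, edgeR).

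**Figure D4:**
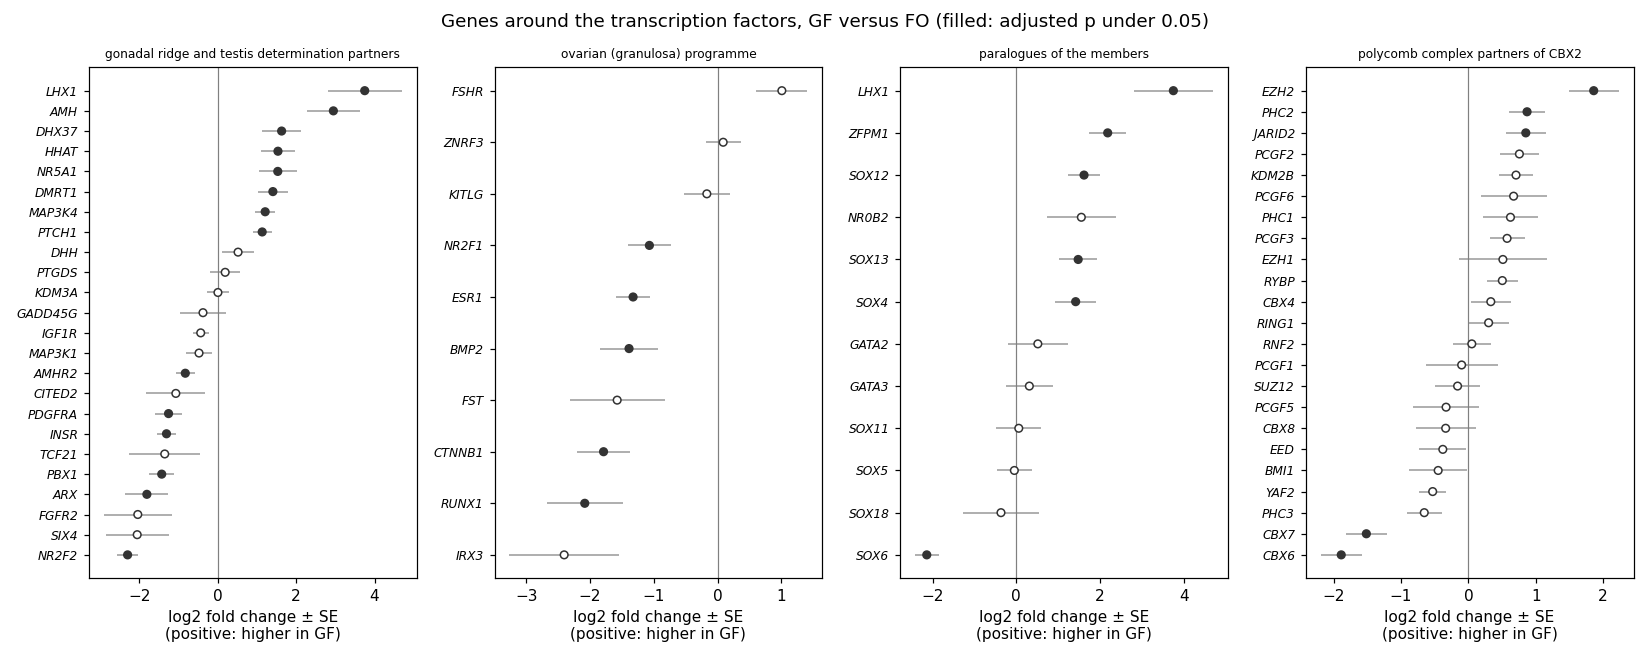
Log2 fold change ± SE in GF versus FO grafts (positive: higher in GF) for the tested genes of 4 lists: partners in ridge formation and testis determination, the ovarian programme, paralogues of the 10 factors and polycomb partners of CBX2; filled circles passed an adjusted p of 0.05 (edgeR). Of the tested genes of the ovarian list 5 of 10 were lower and 0 higher, and the other lists held genes on both sides.

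Relatives of the 10 factors moved in part the other way. Of 24 paralogues 12 were tested, of which 5 were higher, 1 lower and 6 did not pass in GF against FO grafts, with a median of 0.97. ZFPM1 (FOG1), the relative of ZFPM2, had a mean of 76.4 CPM in GF against 16.8 CPM in FO grafts (2.18 ± 0.45, adjusted p = 0.00386, edgeR; 1.58 without GF 4 and 1.35 without GF 3 and GF 4), opposite in sign to ZFPM2. LHX1, a relative of LHX9, had a mean of 4.11 CPM in GF against 0.264 CPM in FO grafts (3.75 ± 0.95, adjusted p = 0.0113, edgeR; 5.30 without FO 4), a call lost without FO 1 and GF 3 (adjusted p = 0.0711). SOX6, which acts with SOX9 in cartilage, had a mean of 58.1 CPM in GF against 256 CPM in FO grafts (-2.14 ± 0.28, adjusted p = 3.76e-04, edgeR). SOX12 had a mean of 133 CPM in GF against 43.5 CPM in FO grafts (1.62, adjusted p = 0.00885), with 0.68 without GF 3 and GF 4 and an adjusted p of 0.0800 without FO 1 and GF 3. SOX13 also passed (1.48, adjusted p = 0.0297, edgeR), but lost the call without GF 4, FO 1, FO 2 or FO 4 (adjusted p up to 0.0870). SOX4 had a mean of 2080 CPM in GF against 787 CPM in FO grafts (adjusted p = 0.0484, edgeR). It lost the call without GF 3, GF 4 or any 1 FO library (adjusted p up to 0.174) and in the paired fit (0.0820), and its log2 fold change was -0.14 without GF 3 and GF 4.

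Of 23 polycomb partners of CBX2, all tested, 3 were higher, 2 lower and 18 did not pass, with a median of 0.30. The list thus passed less often than all genes tested, of which 30.5% passed. CBX6 (-1.89 ± 0.31, adjusted p = 0.00114, edgeR) and CBX7 (-1.52 ± 0.31, adjusted p = 0.00372), which take the same place in the complex as CBX2, fell in GF grafts. EZH2, the methyltransferase of polycomb repressive complex 2, rose (1.86 ± 0.37, adjusted p = 0.00325, edgeR). PHC2 (0.87, adjusted p = 0.0255, edgeR) and JARID2 (0.85, adjusted p = 0.0491) passed as well. PHC2 lost the call without GF 2, FO 1 or FO 2 (adjusted p up to 0.0801) and JARID2 without any 1 library other than GF 3 (up to 0.125) and in the paired fit (0.0595). The 9 tested cell division markers were all higher in GF grafts, with summed levels of 258 to 610 CPM in GF and 54.8 to 100.3 CPM in FO libraries. Their part in the EZH2 difference was not tested.

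Lists of cell type markers also differed between the groups, in directions that varied by list. The Sertoli cell list of 23 genes in the table had a summed level of 16457 to 50568 CPM in GF, 8354 to 11090 CPM in FO and 5151 to 5752 CPM in control libraries. That order of groups was also seen for SOX9 and, within the list, for CLU. GF 3 and GF 4 held 44311 and 50568 CPM and GF 1 and GF 2 held 16457 and 18920 CPM, a split that SOX9 did not show. Most of the sum came from CLU, which encodes clusterin, at a mean of 28060 CPM in GF, 5723 CPM in FO and 3832 CPM in control libraries. The order of the sum thus largely follows CLU. MRO, also in the list, ran in the same order, whereas AMH was highest in control testis and lowest in FO grafts. Of the 18 Sertoli cell genes tested between GF and FO grafts, 7 were higher, 3 lower (KRT8, BEX1 and HOPX) and 8 did not pass. HOPX lost its call without GF 1, GF 3, GF 4, FO 1, FO 2 or FO 4, with adjusted p up to 0.154 (edgeR). The libraries labelled as testicular fibroblasts alone thus hold RNA of genes of the Sertoli cell list. AMH had 5.84, 8.03, 31.4 and 6.34 CPM in FO 1 to FO 4, so that FO 3 raised the mean of 12.9 CPM. Whether these grafts hold Sertoli cells was not tested. The fibroblast list had a summed level of 1504 to 2696 CPM in GF, 4029 to 5980 CPM in FO and 4323 to 4353 CPM in control libraries. Of its 8 genes, 6 were lower in GF than in FO grafts, as WT1, LHX9, EMX2 and ZFPM2 were, 1 (LUM) was higher and 1 did not pass. LUM, which encodes lumican, had a mean of 27.6 CPM in GF against 5.76 CPM in FO grafts (2.25, adjusted p = 0.0395, edgeR; 3.47 without FO 3), a call lost without GF 1, GF 2, FO 1, FO 2 or FO 4 (adjusted p up to 0.115). DCN, which encodes decorin, had a mean of 321 CPM in GF against 1341 CPM in FO grafts (-2.06, adjusted p = 0.00117, edgeR). The Leydig cell list, whose cells are a known site of GATA4, had a summed level of 1835 to 3537 CPM in GF, 597 to 4085 CPM in FO and 15294 to 18155 CPM in control libraries, and 7 of its 10 genes were lower in GF grafts than in control testis, as GATA4 was. In FO grafts 9 of the 10 were lower than in control testis, where GATA4 did not pass (-0.59, edgeR). Between GF and FO grafts 2 of the Leydig cell genes were higher, 1 lower and 7 did not pass. Macrophage markers summed to 17.9 to 35.9 CPM per GF, 61.9 to 227 CPM per FO and 523 to 566 CPM per control library. The myoid cell list had a summed level of 1135 to 1506 CPM in GF, 760 to 820 CPM in FO and 578 to 675 CPM in control libraries, and 4 of its 8 genes were higher and 0 lower in GF than in FO grafts. MYH11, a smooth muscle myosin, rose by 2.57 (adjusted p = 9.29e-04, edgeR; 1.80 without GF 3 and GF 4). Endothelial markers had a summed level of 41.3 to 74.0 CPM in GF, 119 to 223 CPM in FO and 270 to 273 CPM in control libraries. Of 6 endothelial genes tested between GF and FO grafts 0 were higher, 1 (EMCN) was lower (-3.17, adjusted p = 7.75e-04, edgeR) and 5 did not pass. The part of any of these lists in the differences of the factors was not tested.

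WT1 and EMX2 are also known from mesothelium and duct epithelium, and SOX9 from cartilage. The list of mesothelium, rete testis and duct markers, with 10 genes in the table, had a summed level of 107 to 196 CPM in GF, 148 to 267 CPM in FO and 28.0 to 32.4 CPM in control libraries. It was low in control testis, as EMX2 was, with 2 to 5 genes at 0 in GF, 1 to 4 in FO and 3 to 4 in control libraries. Of it only 4 genes were tested between GF and FO grafts, of which 1 (AQP1) was higher, 1 (CDH1) lower and 2 did not pass. CDH1 lost the call without GF 3, GF 4 or any 1 FO library (adjusted p up to 0.174). Without GF 3 and GF 4, KRT19 (-1.01, adjusted p = 0.00720, edgeR) and KRT7 (-1.39, adjusted p = 0.00346) passed as lower in GF grafts. COL2A1 and ACAN, which define cartilage, were near 0, with 9 reads of COL2A1 over the GF, 36 over the FO and 5 over the control libraries. ACAN had 13 reads over the GF, 6 over the FO and 18 over the control libraries. COMP, a cartilage and tendon matrix gene, had 427 reads over the GF libraries and 0 over the FO libraries. It was at least 157-fold higher in GF when set against 3 reads over the FO libraries, and at least 51.3-fold without GF 3. The cartilage list as a whole, with 17 genes in the table, had a summed level of 254 to 838 CPM in GF, 411 to 528 CPM in FO and 827 to 945 CPM in control libraries. Of 7 tested between GF and FO grafts, 2 were higher (COMP and COL9A2), 3 lower (SOX6, HAPLN1 and COL11A1) and 2 did not pass, with a median of -0.98. COL9A2, a collagen of cartilage, had a mean of 384 CPM in GF against 133 CPM in FO grafts (1.53, adjusted p = 0.0296, edgeR), and 764 CPM in control testis. It lost the call without GF 3, GF 4, FO 1, FO 2 or FO 4 (adjusted p up to 0.0946) and was at 0.50 (adjusted p = 0.459) without GF 3 and GF 4. HAPLN1, a link protein of cartilage matrix, fell (-2.55, adjusted p = 0.00222, edgeR), and so did COL11A1 (-0.98, adjusted p = 0.0178), which lost the call without FO 1 (0.0739). The part of these lists in the differences of SOX9, WT1 and EMX2 was not tested. GF 3 held 191 CPM of skeletal muscle markers in sum and FO 1 held 729 CPM, while the remaining 8 libraries held 2.42 to 25.9 CPM. Without GF 3 and FO 1, 5 factors again passed between GF and FO grafts, 1 higher and 4 lower, against 2312 of 13948 genes tested.

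**Figure D5:**
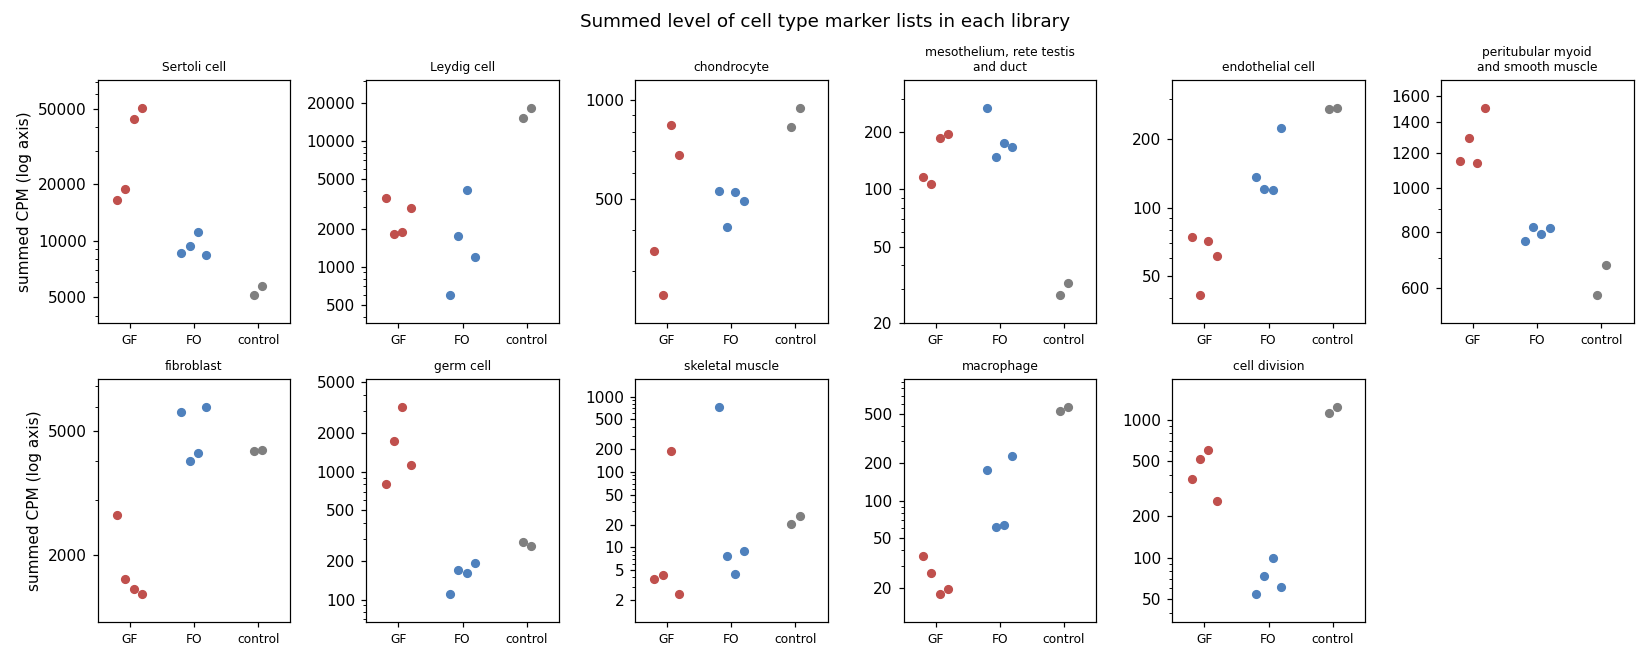
Summed CPM (log axis) of 11 lists of cell type markers in each of the 4 GF (red), 4 FO (blue) and 2 control testis (grey) libraries; points are libraries in replicate order. The sum of Sertoli cell markers, most of it CLU, was highest in GF grafts, at 16457 to 50568 CPM. That of fibroblast markers was lowest there, at 1504 to 2696 CPM.

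The label of the grafts was checked on germ cell markers. Their summed level was 804 to 3199 CPM in GF, 111 to 192 CPM in FO and 263 to 281 CPM in control libraries, and 12 of the 13 genes were higher in GF than in FO grafts. Total counts lay between 2915534 and 4917325 per GF, between 4033509 and 4887878 per FO and at 5844944 and 7013911 in the control libraries. Scaling by total counts moved the median of all genes in GF against FO grafts by over 0.1, to 0.13, and the share of called genes that were higher to 69.1%, against 57.5% with TMM. The same 5 factors passed, with 4039 of 13782 genes called.

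The genes whose levels ran most like SOX9 over all 10 libraries were CLTB, POC5 and GAS6. They were drawn from 10188 genes with a symbol whose mean log2 CPM reached 3, and lay at a root mean square difference of 0.13, 0.16 and 0.17 on the log2 scale after centring, where SOX9 itself varied by 0.57. CLTB, a clathrin light chain, averaged 68.2 CPM in GF, 32.9 CPM in FO and 27.3 CPM in control libraries. Most like WT1 were FAM84A, PRRT2 and EPB41L5, at 0.17, 0.17 and 0.20. FAM84A averaged 247 CPM in GF, 456 CPM in FO and 105 CPM in control libraries. Most like LHX9 were THSD4, EMP1 and ST3GAL6, at 0.28, 0.29 and 0.30. EMP1, a membrane protein of epithelia, averaged 48.2 CPM in GF, 224 CPM in FO and 156 CPM in control libraries.

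Some of the factors share bases with another annotated gene, and whether strand was used in counting is not given in the sources used here. WT1 shares 146 bases with a long non-coding RNA, LOC102161978, which did not pass between GF and FO grafts (-0.54, adjusted p = 0.186, edgeR). EMX2 shares 132 bases with LOC102164998, another long non-coding RNA, which had 4, 0, 4 and 13 reads in GF 1 to GF 4, against 22, 24, 13 and 26 reads in FO 1 to FO 4 (-1.61, adjusted p = 0.187, edgeR). GATA6 shares 47 bases with LOC100525229, a protein-coding gene that did not pass (0.02, adjusted p = 0.974, edgeR), and ZFPM2 shares 6652 bases with a pseudogene that has no row in the count table. If strand was not used, reads of these pairs cannot be told apart within the shared bases. The counts of WT1, EMX2, GATA6 and ZFPM2 may be uncertain to that extent.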

How the data were processed

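Polyadenylated RNA of 4 GF grafts, 4 FO grafts and 2 control testis tissues was made into 3′ tag libraries with a QuantSeq kit, per the labels' protocols. The authors deposited 1 table of read counts per gene (27376 gene symbols, 10 libraries); its columns F1 to F4 were taken as FO 1 to FO 4. Sscrofa11.1 is the build, and DESeq2 1.42.0 the tool, in the submitters' processing notes. The aligner, the counting tool, strand use and any step against reads of the mouse host were not given in the sources used here. Mouse reads were not tested for. From the deposited counts, edgeR 4.0.16 (R 4.3.3) kept genes by its filterByExpr rule (minimum count 10), scaled by TMM and ran the robust quasi-likelihood test, on the 8 graft libraries for GF versus FO and on all 10 for the control comparisons, with Benjamini-Hochberg adjustment over all genes. The code was tested on simulated data. Levels are CPM, counts per 1000000 reads scaled by TMM over all 10 libraries. Gene positions are those of RefSeq on Sscrofa11.1. Each factor was counted over 1 to 2852 reads per library; at the depths here, 3 reads equal 0.452 to 1.03 CPM, a floor that covers counting error only.

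The factors and lists were chosen with earlier results of these data known. Named genes are all 10 factors, up to 4 genes of the lowest p per list in GF versus FO, any needed to fill a count of 5 or fewer, and the 3 nearest profiles of SOX9, WT1 and LHX9; some of these are given only as counts. AMH and NR5A1 stand in several lists. A further gene of the ovarian list is not reported here and is left out of the counts of that list. Deviations from the group means correlated weakly between same-numbered GF and FO libraries (r between 0.10 and 0.26 over genes). By highest correlation 2 of 4 numbers, 2 and 3, matched best with themselves, and numbers 1 and 4 matched another number best. These values do not settle whether the numbers pair the grafts, and the main tests did not use them. What a number stands for is not given, and a shared number with a control library rests on no check. Alternatives were DESeq2, other scalings, no filter, a test against a fold of 1.5, thinned libraries, the replicate block and libraries left out.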

Additional observations from a re-analysis of the deposited data

Results flagged for a closer look

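In the 20 groups of 4 libraries examined (10 factors, GF and FO grafts), 2 values stood apart from the other 3 of their group by Dixon's criterion, and chance alone flags about 1 in 20 groups. WT1 in FO 3 was at 354 CPM, below the other FO libraries, with a gap of 0.830 of the group's range. CBX2 in FO 4 was at 29.8 CPM, above the other FO libraries, with a gap of 0.838 of the range. The log2 fold change of WT1 in GF versus FO grafts ran between -1.22 and -1.01 with any 1 library left out, and that of CBX2 between -0.58 and -0.14.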

How the results depend on the processing

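Of 550 recomputed differences of the 10 factors, 521 kept their direction and their side of the threshold, 15 lost the call, 4 gained one and 10 changed sign. In GF versus FO grafts 5 factors passed with any 1 library left out (genes called between 2902 and 4842, main count 4205), and SOX9 alone lost its call, against a fold of 1.5. That fold left 2456 called genes in GF versus FO, 2658 in GF versus control testis and 1833 in FO versus control testis, and leaving out FO 1 and GF 3 left 2312 in GF versus FO. In fits of only the libraries of both groups, 3 factors and 2201 genes passed in GF versus control testis (6 and 4091 otherwise), and 5 factors and 6600 genes in FO versus control testis (2 and 2972 otherwise). With 1 library left out, 3 to 6 factors and 1141 to 4729 genes passed in GF versus control testis, and 796 to 2263 genes in FO versus control testis, lowest without a control library. The replicate block (paired numbers) gave 5 factors and 4335 genes in GF versus FO and changed no call of a factor other than those of GATA4 and LHX9. Of the factors, signs changed only for ones that had not passed. Of 1311 recomputed differences of 65 named list genes, 1161 kept direction and call. Without GF 3 and GF 4, CBX2 was at 0.010 in GF versus FO, GATA6 at -0.070 in GF versus control testis and SOX4 at -0.14. In thinned libraries SOX8 was at -0.20 and NR0B1 at 0.026 in FO versus control testis. With 1 library left out, GATA6 ran from -0.20 to 0.48 in GF versus control testis, and in FO versus control testis SOX8 ran from -0.043 to 0.21, NR0B1 from -0.67 to 0.47 and CBX2 from -0.43 to 0.0077. KRT7 ran from -0.53 to 0.10 and ACTA1 from -5.22 to 2.90 in GF versus FO. The cause of these shifts was not tested. Depth limits SOX8, ZFPM2 and NR0B1 most, at 1 to 76 reads per graft library.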
